A study of Drosophila melanogaster with 6 samples.

Results

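The genes described here are the cuticle protein family genes of the fly, taken as every gene of the deposited matrix whose symbol starts with Cpr and a digit, or with Twdl, Lcp or Ccp84. The rule found 61 of 12925 genes, namely 39 Cpr, 15 Twdl, 6 Lcp and 1 Ccp84 gene. The rule reads symbols alone.

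The insect cuticle is an extracellular layer of chitin fibres and proteins that covers the epidermis and lines the tracheae, the foregut and the hindgut. Most of its proteins are small and secreted, and the Cpr, Lcp and Ccp84 genes belong to the large family that carries the Rebers and Riddiford chitin-binding motif, whereas the Tweedle (Twdl) genes form a separate cuticle protein family. Epidermal cells are known to make cuticle proteins in waves around each moult and around adult emergence, with different members used by larva, pupa and adult.

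Single nuclei were sequenced from the bodies, without heads, of adult Drosophila melanogaster females that were fed, starved to day 2 or starved to day 5, with 2 libraries per condition. All 6 libraries shared the genotype PromE-gal4, Tub-gal80ts, that is, an oenocyte driver of Gal4 together with a ubiquitous, temperature-sensitive inhibitor of it. The labels name no UAS transgene. Flies were crossed at 18 °C, collected within 48 hours of emerging, kept for another 48 hours at 18 °C and moved to 29 °C, for which the labels give both 7 and 5 days. Nuclei of several flies were pooled in each preparation, and the sources used here do not say if both libraries of a condition had flies of their own. P-values below therefore measure the spread between libraries, which may be technical. The library names and the nucleus annotation carry 5 and 7 where the sample titles give day 2 and day 5, and the titles were followed.

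The matrix held 43027 nuclei, fewer than the study's text counts, with 10059 and 10091 in the fed libraries, 7591 and 7492 at day 2, and 3776 and 4018 at day 5. The unique molecular identifiers (UMIs) worked back from the values summed to 7567395 to 22941946 per library, with medians of 1075 to 1330 per nucleus. In all, 179 barcodes occurred in more than 1 library. The authors' 26 clusters and their names were used as deposited, except where markers went against a name.

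Over all nuclei, 21940 UMIs of the 61 genes were counted, which is 238 counts per 1000000 UMIs (CPM, the unit of all levels below unless another is named). They were unevenly spread over the family, since 5 members held at least 1000 UMIs each and 32 held fewer than 100. The Cpr genes took 18442 of these UMIs, the Twdl genes 1935, the Lcp genes 1526 and Ccp84Ab 37. The 10 members with most UMIs were Cpr49Ab (5735), Cpr73D (2543), Cpr67B (2450), Cpr65Au (1671), Cpr66D (1323), Lcp65Ag2 (784), Cpr51A (613), TwdlY (504), Cpr62Bb (492) and Cpr49Ae (441). Levels between genes were not set per length, so this order is one of UMIs and not of transcripts per base.

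The family is laid out in clusters along the chromosomes. By the Ensembl annotation of BDGP6, the build that the labels name, 26 members lie on 3L, 14 on 2R, 13 on 3R, 6 on X and 2 on 2L, and 45 lie within 10 kb of another gene of the family. Several of these neighbours recur below. Lcp65Ag3 (3L:6130386-6130989), Cpr65Au (3L:6131242-6132109), Lcp65Ag2 (3L:6132990-6133593), Lcp65Ag1 (3L:6134697-6135274) and Lcp65Af (3L:6136215-6136791) stand side by side on the minus strand, and TwdlM, TwdlP, TwdlB, TwdlL and TwdlN share 3R:26619118-26632956. Cpr49Ab lies at 2R:12378440-12379396, Cpr67B at 3L:9404797-9406174 and Cpr73D at 3L:16939100-16957689. The near-identical copies Lcp65Ag1, Lcp65Ag2 and Lcp65Ag3, and Cpr67Fa1 and Cpr67Fa2, may share reads, so their separate values are uncertain. In addition, 19 members overlap another annotated gene, 7 of them within exons, among them Cpr73D with Ogdh and Cpr65Au and Lcp65Ag3 with asRNA:CR46005. The sources used here do not say whether strand was used in counting, so reads of such partners cannot be told apart.

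The nuclei named epithelial were the main source of the family. They numbered 4794, or 11.1% of all nuclei, and held 9104 member UMIs, or 41.5% of the total, with at least 1 UMI of 58 of the 61 members. Their summed member level was 1773 CPM, and it was 1433 and 1486 in the fed libraries, 2110 and 2664 at day 2, and 1142 and 1355 at day 5. Among the 25 clusters with at least 100 nuclei, tendon cells followed with 674, then the nuclei named after the abdominal posterior compartment with 594 and the pylorus with 455. All other clusters lay between 73.7, in a follicle cell cluster, and 262, in the visceral muscle of the crop. The tendon value rested on 173 UMIs and ranged from 401 to 1298 between libraries, so its place relative to the clusters after it is not fixed by these data. Since clusters were made from the same nuclei and genes, their order is a description without a test.

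**Figure D1:**
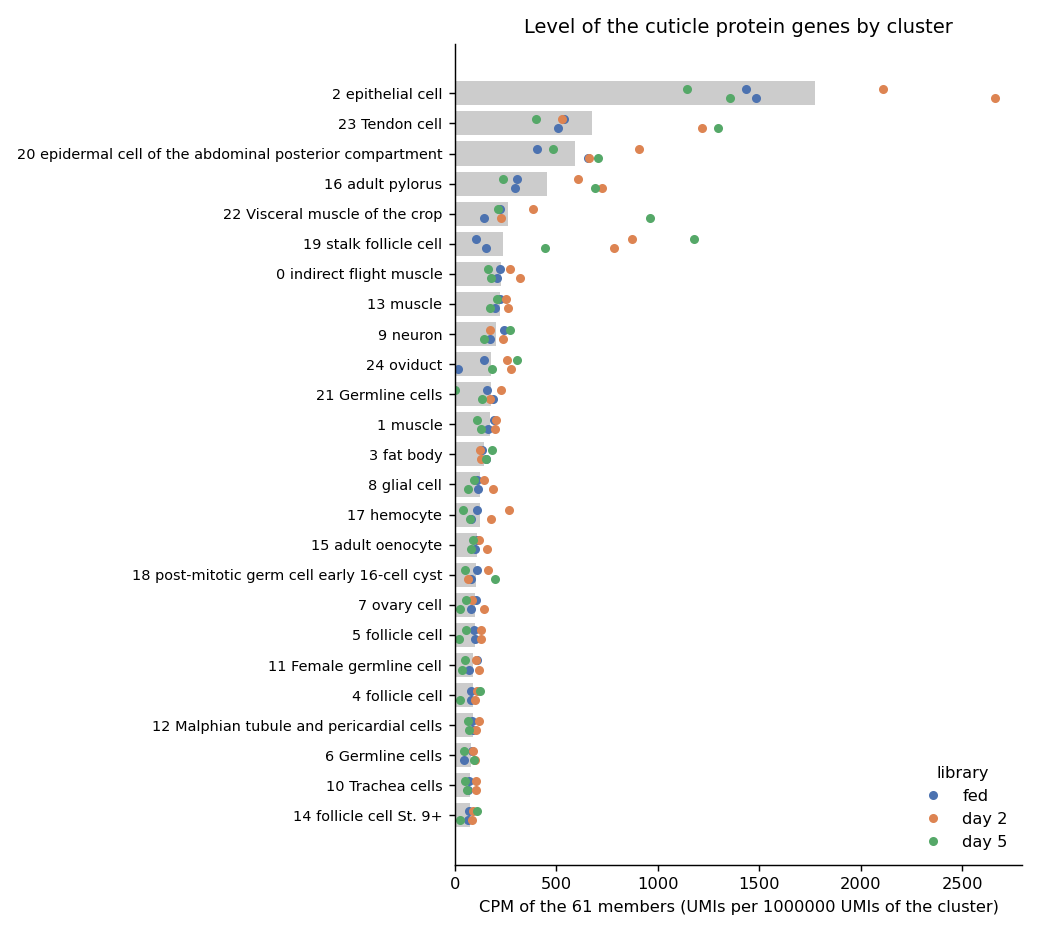
Horizontal bars give the CPM of the 61 cuticle protein genes in a cluster, pooled over the 6 libraries, and dots give each library, for the 25 clusters with at least 100 nuclei. The epithelial bar reaches 1773 CPM, and the next highest, of tendon cells, 674.

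The share of nuclei with at least 1 member UMI was 39.3% in the epithelial cluster (exact Clopper-Pearson 95% interval 37.9 to 40.7%, counting error only). It was 74.1% (69.7 to 78.1%) in the pylorus and 23% (20.6 to 25.5%) in the cluster named trachea. The median depth of these nuclei was 841, 6077 and 3751 UMIs, respectively. For thinning to 1000 UMIs, nuclei under that depth were left out, namely 3118 of the 4794 epithelial nuclei, 7 of the 1141 trachea-named ones, none of the pylorus and 142 of the 384 hemocytes, so that the epithelial share rests on the 1676 deeper nuclei. After thinning, the shares were 39.8% in the epithelial cluster, 25.7% in the pylorus and 8.29% in the trachea-named cluster. The share in hemocytes, which are not known to build cuticle, was 10.9% at a median of 1105 UMIs and 10.7% after thinning. After thinning, the share in trachea-named nuclei was thus not above that of hemocytes, whereas those of the epithelial cluster and the pylorus were. Other cells not known to build cuticle varied, with 5.81% in ovary cells, 16.9% in indirect flight muscle and 19.2% in muscle cluster 13. Hemocytes therefore do not give a fixed background.

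The cluster names were checked against markers. The epithelial cluster had the highest level of grh, the Grainy head factor of cuticle-forming epithelia, at 1177 CPM, and the pylorus the highest levels of byn (287), otp (303) and bowl (313), which are transcription factor genes of the hindgut region. The trachea-named cluster lacked most tracheal markers, with the exception of btl (77.4 CPM). Its level of trh, the tracheal master regulator, was 1.1 CPM against 188 in the epithelial cluster, and those of the luminal matrix genes Gasp (1.97 against 193), serp (3.29 against 54.3) and verm (3.29 against 122) were also low. It had instead the highest levels of the polarity gene crb (1195) and of the eggshell gene Cp15 (3290). These are pooled over conditions. The sum of 12 eggshell and follicle cell markers in it was 11586 and 4817 CPM in the fed libraries and 647 to 1162 in the starved ones. That sum was also high in fed epithelial nuclei, as given below. Because of its tracheal markers, the cluster named trachea is called trachea-named here. Cluster 12, named after Malpighian tubule and pericardial cells, was highest for all 8 enterocyte markers.

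Within the epithelial cluster Cpr49Ab reached 694 CPM, Cpr67B 213, Cpr65Au 162, Lcp65Ag2 100.5 and Cpr47Eg 52.4. These are few transcripts for single nuclei, and few nuclei carried them. Cpr49Ab was found in 621 nuclei, or 13% of the cluster, Cpr67B in 577 (12%) and Cpr65Au in 286 (5.97%). Both Cpr49Ab and Cpr67B were found in 82 nuclei, which is 14.2% of those with Cpr67B, a share close to that of Cpr49Ab in the whole cluster. Of the Cpr65Au nuclei, 24.5% also held Cpr49Ab and 26.9% held Cpr67B. No test was made of these shares, because deeper nuclei hold more of every gene.

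Of the 45 members with at least 10 UMIs in the cluster where they were highest, 31 were highest in epithelial nuclei. The remaining 14 were highest elsewhere. In cluster 12 these were TwdlY (23.3 CPM), Twdlalpha (10.2), Cpr64Ad (8.15) and TwdlX (3.34), and TwdlX, TwdlY and Twdlalpha are neighbours at X:16731091-16744365, where goe lies on the opposite strand. In the pylorus these were TwdlT (25.8), Cpr62Ba (22.5) and TwdlF (3.96). TwdlG was highest in neurons, at 95.4 CPM and between 65.1 and 114 in every library. Cpr62Bb was highest in oenocytes (47.5, against 36.6 in the epithelial cluster), which secrete the hydrocarbons of the body surface. This order did not hold in fed flies. The epithelial level was 21.9 and 40.5 CPM in the fed libraries, and that of oenocytes, given below, was lower in each. Cpr78E (36.9) was highest in muscle cluster 13, Cpr72Ec (7.95) in female germline cells and Ccp84Ab (6.09) in stalk follicle cells. The value of Ccp84Ab there rested on 1 nucleus of day 2 library 1, which held 10 UMIs.

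Cpr66D and Cpr73D were not mainly epithelial. Only 1.44% of the Cpr66D UMIs and 7.12% of the Cpr73D UMIs came from epithelial nuclei, as opposed to 62.1% for Cpr49Ab. Cpr66D was at 87.1 CPM in indirect flight muscle, where the 6 libraries lay between 70.9 and 133. Its 129 CPM in the visceral muscle of the crop rested on 1 nucleus of day 5 library 2, which held 28 of the 52 UMIs, and without it the level there was 60 CPM, under that of flight muscle. Cpr73D reached 109 in tendon cells, on 28 UMIs, and 75.6 in the fat body, on 1058. The cluster in which a member was highest was the same for 43 of the 45 members when each library was given equal weight, for 38 without the tenth of nuclei with most UMIs, and for 22 in the fed libraries alone. Several of the 45, such as Lcp65Ag1 and Cpr11A, had no UMI in the fed libraries. For these no cluster was highest there, so the last count does not measure changes of cluster.

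**Figure D2:**
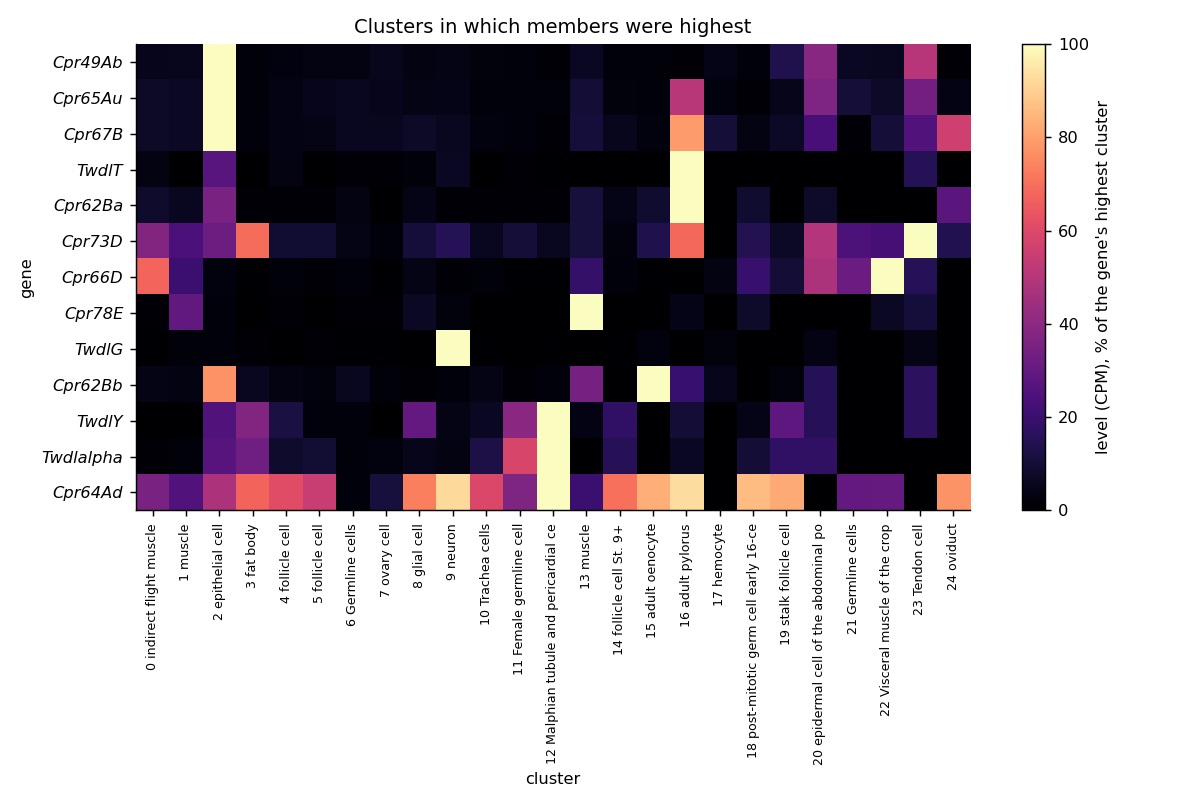
Heat map of 13 members (rows) over the 25 clusters with at least 100 nuclei (columns), each cell giving CPM as a percent of the gene's highest cluster. Cpr49Ab, Cpr67B and Cpr65Au are high in the epithelial column, whereas Cpr66D, Cpr73D, TwdlG and TwdlY peak in other columns.

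In the pylorus, Cpr67B was the most abundant member, with 169 CPM found in 132 of 432 nuclei. Cpr65Au reached 81.9 CPM there, but its 248 UMIs came from 14 nuclei. A single nucleus of day 2 library 1 held 103 UMIs of Cpr65Au, which is 19.8% of all Cpr65Au UMIs of that library, and a single nucleus of day 5 library 2 held 71, or 44.7%. Likewise, a single pylorus nucleus held 86 of the 486 UMIs of Cpr67B in day 2 library 2, or 17.7%. Totals of Cpr65Au and Cpr67B in such a library are therefore set in part by 1 nucleus. The next highest members of the pylorus were Cpr73D, on 227 UMIs, TwdlT and Cpr62Ba. In the trachea-named cluster the 5 highest members were Cpr49Ab (17.3 CPM), Cpr51A (11.6), Cpr73D (6.8), Cpr67B (5.92) and Cpr64Ad (4.83), all of them low.

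To compare conditions, the deposited natural log values were averaged over the nuclei of a cluster in each library and tested with limma over all genes that had a nonzero value in at least 10 nuclei of at least 2 libraries. In the epithelial cluster, 17 of the 61 members entered the test and 44 did not. At day 2, 8 members were higher and 1 was lower than in fed flies at an adjusted p under 0.05, where 1.59% of the 7479 tested genes were higher and 2.59% lower. However, 8 of the 17 members passed the filter only through the day 2 libraries, which favours a difference, and 7 of the 8 higher calls are among them. This count is thus no support for a change of the family. Without fed library 1 or without fed library 2 the count of calls was 2 instead of 9. At day 5, 1 member was higher and 2 were lower than in fed flies, where 6.61% of genes were higher and 13% lower. Between day 2 and day 5, 1 member was higher and 10 were lower at day 5, where 2.9% of genes were higher and 8.5% lower. Of these 10, 8 are again members that passed through day 2 only, which favours a lower call. The remaining ones are Cpr49Ab and Cpr65Au. In all, 6 calls were left without either fed library.

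Cpr49Ab fell during starvation. Its level in epithelial nuclei was 930 and 893 CPM in the fed libraries, 506 and 624 at day 2, and 397 and 447 at day 5. The 3 conditions did not overlap, and every day 5 library lay under every day 2 library. At day 5 its mean value differed from that of fed flies by −0.361 natural log units (SE 0.0436, adjusted p = 1.8e-05), and the summed UMIs gave a log2 fold change of −1.11 (SE 0.12, adjusted p = 0.00056), beside a median of −0.12 over all genes. The highest adjusted p on leaving out 1 library was 0.0116. The fall at day 2 (−0.219, SE 0.0436, adjusted p = 0.0055) and that from day 2 to day 5 (−0.142, adjusted p = 0.045) were less firm. The first was lost without either fed library or day 2 library 1, with an adjusted p of up to 0.193, and the second was lost whichever of the 6 libraries was left out, with an adjusted p of 0.0577 to 0.276.

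Cpr67B moved the other way. Its level was 145 and 131 CPM in the fed libraries, 207 and 190 at day 2, and 315 and 542 at day 5. Again the conditions did not overlap. At day 5 the mean value was 0.452 natural log units above fed (SE 0.0457, adjusted p = 2.7e-06), with a log2 fold change of 1.58 (SE 0.22, adjusted p = 0.0022) and a highest adjusted p of 0.00709 on leaving out 1 library. From day 2 to day 5 the difference was 0.268 (adjusted p = 0.001), which was lost without day 2 library 2 (adjusted p = 0.0618). The difference at day 2 was 0.184 (SE 0.0457, adjusted p = 0.028), but it did not pass on summed UMIs (log2 fold change 0.52, adjusted p = 0.47) and was lost when any 1 fed or day 2 library was left out, with an adjusted p of up to 0.388.

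Cpr65Au, the third of the abundant epithelial members, had 138 and 149 CPM in the fed libraries, 240 and 179 at day 2, and 84.4 and 134 at day 5. Day 5 lay under both other conditions, whereas the 2 day 2 libraries stood far apart. Its mean value was lower at day 5 than in fed flies by 0.17 natural log units (SE 0.048, adjusted p = 0.02) and lower than at day 2 by 0.224 (adjusted p = 0.0057). On summed UMIs only the second difference passed (log2 fold changes −0.42 and −0.95, adjusted p = 0.28 and 0.045). The first was lost without either fed library or day 5 library 1 (adjusted p up to 0.282), and the second without either fed library or day 2 library 1 (up to 0.13).

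Cpr76Bd also passed through day 2 only, although it had UMIs in every library, with 8 and 12 in the fed libraries, 22 and 23 at day 2, and 3 and 1 at day 5. It was lower at day 5 than at day 2 (−0.101, adjusted p = 0.0098, but up to 0.125 without either fed library or day 2 library 1). Cpr73D, Cpr97Eb, Cpr62Bb, Cpr47Ef, Cpr49Ae and Cpr51A were tested and passed in no epithelial comparison. For Cpr73D the values were 0.118 and 0.0933 in the fed libraries, 0.115 and 0.113 at day 2, and 0.12 and 0.178 at day 5.

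Markers of other cells in the epithelial cluster moved with condition as well. The sum of 12 eggshell and follicle cell markers was 8328 and 7997 CPM in the fed libraries, 91.4 and 101 at day 2, and 19 and 19.5 at day 5, and those of the enterocyte, fat body and oenocyte markers were also lower in every starved library. Muscle markers were at 1476 and 1922 in the fed libraries, 1417 and 1926 at day 2, and 2841 and 2707 at day 5, and neuron markers at 129 and 99.5, 175 and 219, and 186 and 182, so that both were highest in starved libraries. The sum of 2 sensory support cell markers was 250 and 266, 356 and 370, and 490 and 722. The sum of 8 epithelial markers lay between 3758 and 4351 in every library. Whether free RNA or other cells in the cluster took part in the differences of Cpr49Ab, Cpr67B and Cpr65Au was not tested.

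**Figure D3:**
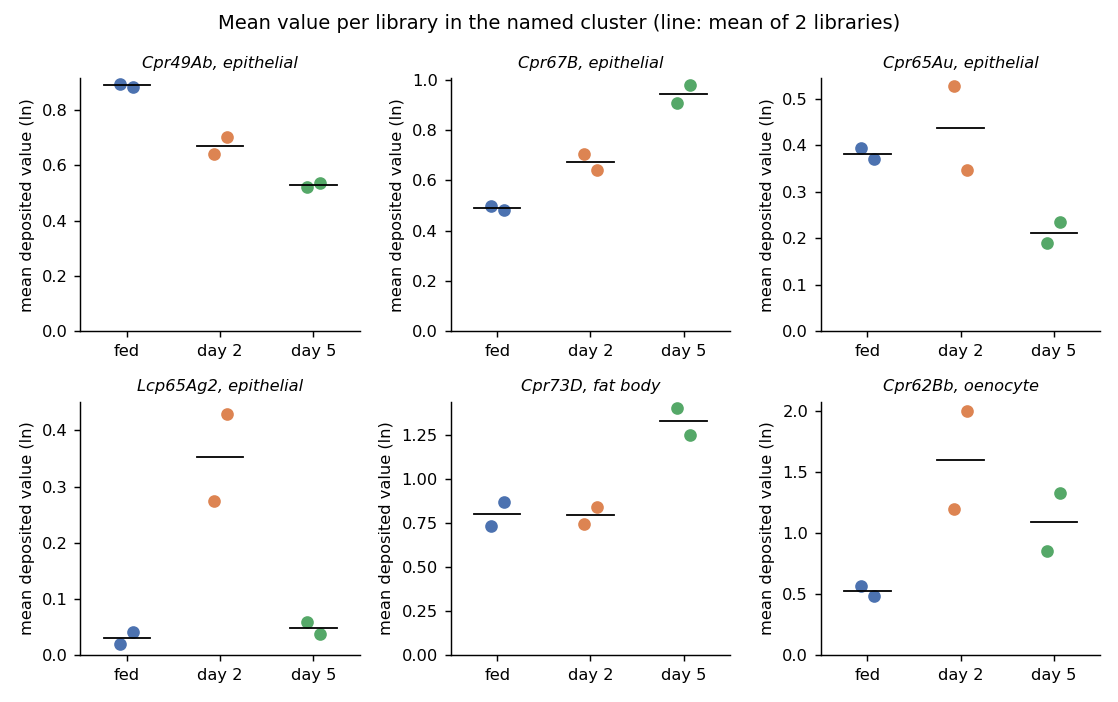
The 6 panels show the mean deposited value (natural log units) of 4 members in epithelial nuclei, of Cpr73D in the fat body and of Cpr62Bb in oenocytes, with 1 dot per library and a line at the mean of the 2 libraries of a condition. In epithelial nuclei Cpr49Ab goes from 0.896 and 0.883 in fed libraries to 0.52 and 0.537 at day 5, and Cpr67B from 0.497 and 0.483 to 0.905 and 0.98.

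In the trachea-named cluster 2 members were tested, Cpr49Ab and Cpr51A, and 59 were not. No member was called higher or lower at day 2 (background 2% and 5% of 5695 genes) or between day 2 and day 5 (1% and 10.9%) by limma, and none had an unadjusted p under 0.05 there. Cpr51A was called lower at day 5 than in fed flies (−0.158, adjusted p = 0.042), where 24.5% of all genes were lower and 2.55% higher. The call rested on 23 and 14 UMIs in the fed libraries, 5 and 8 at day 2, and 2 and 1 at day 5. The summed UMIs did not pass (log2 fold change −0.61, adjusted p = 0.52), and the call was lost when any library except day 5 library 1 was left out, with an adjusted p of up to 0.231. For Cpr49Ab the values were 0.131 and 0.227, 0.158 and 0.193, and 0.082 and 0.0754, which did not pass at day 5 (adjusted p = 0.14).

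In the pylorus 3 members were tested and none was called in any comparison by limma, with 1 at an unadjusted p under 0.05 in each of the 3. Few genes of any kind were called there, namely 0.0212% higher and 0.55% lower of 4725 at day 2, 0.339% and 0.952% at day 5, and 0.148% and 0.0423% between them. Cpr67B had values of 1.09 and 1.15 in the fed libraries, 1.31 and 1.66 at day 2, and 0.937 and 1.19 at day 5. Day 2 lay above the other conditions, by 0.369 over fed (SE 0.14, adjusted p = 0.36). Cpr62Ba had 15 and 2 UMIs in the fed libraries, 11 and 17 at day 2, and 7 and 16 at day 5, with a difference of 0.72 at day 5 (adjusted p = 0.23) that passed only without day 5 library 1, when the count of calls was 1.

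The responses of the 3 clusters were set against each other within libraries. For Cpr49Ab, the change from fed to day 5 in epithelial nuclei minus that in trachea-named nuclei was −0.26 natural log units (SE 0.056, adjusted p = 0.0075 over 5451 genes), a comparison in which 20.4% of genes differed in either direction. It did not pass on summed UMIs (log2 difference −0.5, adjusted p = 0.56) or without fed library 1 (adjusted p = 0.127). No other difference of a member between these clusters passed by limma, in comparisons where 3.58% (day 2) and 6.53% (day 5 with day 2) of genes differed between epithelial and trachea-named nuclei, 0.238%, 0.779% and 0.0649% between epithelial and pylorus nuclei, and 0.304%, 6.12% and 2.38% between trachea-named and pylorus nuclei. For Cpr67B the difference between epithelial and pylorus nuclei from day 2 to day 5 was 0.69 (adjusted p = 0.12).

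A further 16 clusters had 20 or more nuclei in each library, and in 12 of them a member could be tested, giving 40 pairs of a gene and a cluster. Of these, 5 were higher and 4 lower at day 2, 1 was higher and 8 were lower at day 5, and 1 was higher and 9 were lower at day 5 than at day 2. Of the 5 and the 9, 3 each passed through day 2 only, which favours a call. Over all 78736 pairs of a gene and one of these clusters, 2.46% were higher and 3.78% lower at day 2, 5.72% and 16.9% at day 5, and 3.92% and 12.3% between them. Cpr49Ab accounted for 6 of the 8 lower calls of day 5, and it was found at low levels in cells that are not known to make cuticle.

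In indirect flight muscle Cpr49Ab was at 54.3 and 42.8 CPM in the fed libraries, 28.4 and 33.2 at day 2, and 13.6 and 6.03 at day 5 (−0.173 at day 5, adjusted p = 6.5e-06, log2 fold change −2.33, beside a median of −0.41 over all genes). Muscle cluster 1 showed 55 and 55.2, 25.6 and 32, and 16.2 and 15.4 (−0.175, adjusted p = 6.4e-06, log2 fold change −1.73, beside −0.23). In the fat body the levels were 18.1 and 17.2, 7.14 and 7.21, and 5.59 and 1.44 (−0.13, adjusted p = 0.0021). In all of these clusters, which were named for their calls, the fed libraries lay above all starved ones, and the share of all genes with that order was not counted. The day 5 call was kept in these clusters whichever library was left out. Of all genes, 44.1% were lower at day 5 in flight muscle, 28.9% in muscle cluster 1 and 15.9% in the fat body. At day 2 Cpr49Ab was also called lower in flight muscle (background 8.93%), muscle cluster 1 (3.41%), the fat body (8.33%) and follicle cell cluster 4 (2.76%), but each of these was lost without either fed library or day 2 library 1, with an adjusted p of up to 0.365.

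In follicle cell cluster 5 the level fell from 35 and 38.4 in the fed libraries to 3.11 and 0 at day 5 (−0.172, adjusted p = 0.00047), where 12.2% of genes were lower. In follicle cell cluster 4 the mean value was lower at day 5 (−0.183, adjusted p = 0.00034), but the level was 45.7 and 0 CPM against 31.5 and 21.5 in the fed libraries and did not pass on summed UMIs, and 42.7% of all genes were lower. In cluster 12 the call (−0.152, adjusted p = 0.018, where 9.19% of genes were lower) was lost without either fed library or day 5 library 1 (adjusted p up to 0.114). Free RNA of epithelial nuclei, in which Cpr49Ab fell too, was not tested for its part in these values.

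Cpr73D was higher at day 5 in the fat body, the main store of fat and glycogen. It had 61.9 and 77.9 CPM in the fed libraries, 54.7 and 60.1 at day 2, and 126 and 117 at day 5. Both day 5 libraries lay above the 4 others. The difference from fed was 0.526 natural log units (SE 0.068, adjusted p = 0.00016, log2 fold change 0.81) and that from day 2 was 0.532 (adjusted p = 0.00026, log2 fold change 1.08), and no single library removed either call (highest adjusted p 0.00849 and 0.00697). In the fat body 15.5% of 8065 genes were higher at day 5 than in fed flies and 10.2% were higher than at day 2. Cpr73D overlaps Ogdh in exons, whose reads may not be told apart from its own there.

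Cpr62Bb was called higher at day 2 in oenocytes, the target cells of the PromE driver. It had 13 and 8 UMIs in the fed libraries, 20 and 44 at day 2, and 16 and 18 at day 5, that is, 20.7 and 22.5, 51.3 and 108, and 44.8 and 49.3 CPM. The fed libraries were the lowest, and the 2 day 2 libraries stood far apart. The difference at day 2 was 1.07 (SE 0.23, adjusted p = 0.022, log2 fold change 1.74), where 2.73% of 3511 genes were higher, and it was lost without either fed library or day 2 library 2 (adjusted p up to 0.228).

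In flight muscle Cpr66D was at 80.9 and 70.9 CPM in the fed libraries, 89.1 and 133 at day 2, and 83.7 and 87.4 at day 5. It was called higher at day 2 (0.124, adjusted p = 0.01), where 4.74% of 7919 genes were higher, and lower at day 5 than at day 2 (−0.127, adjusted p = 0.0038), where 31.7% were lower, but neither passed on summed UMIs (adjusted p = 0.1 and 0.16). The first was lost without either fed library or day 2 library 2, and the second without day 2 library 2 or day 5 library 1. Cpr65Au was lower there at day 5 than at day 2 (−0.0642, adjusted p = 0.003), and also in muscle cluster 1 (−0.0573, adjusted p = 0.03, where 23.4% of genes were lower), although 5 of the 6 libraries, left out singly, ended the second call. Cpr73D had 95 and 123 UMIs in flight muscle in the fed libraries, 60 and 62 at day 2, and 29 and 41 at day 5, a lower mean value at day 5 than at day 2 (−0.0769, adjusted p = 0.013) that did not pass on summed UMIs (adjusted p = 0.21). TwdlN (12 and 11 UMIs at day 2), Lcp65Ag1 (11 and 10) and Lcp65Ag2 (17 and 23) passed the filter there through day 2 only, with 0 to 2 UMIs in any other library.

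Over all nuclei together, 40 of the 61 members could be tested and 21 could not, and cell type shares also move these values, so that fewer cells of a type and less RNA per cell cannot be told apart. At day 2, 15 members were higher and 1 was lower, where 26.4% of 11698 genes were higher and 10.7% lower. Of the 15, 10 passed the filter through day 2 only, which favours a call. The 10 with the lowest adjusted p were Lcp65Ag3, Lcp65Ag1, Lcp65Ag2, Cpr47Eg, TwdlN, TwdlM, Lcp65Ac, Cpr78Cb, TwdlP and Cpr11A (adjusted p = 1.7e-11 to 0.00059), whose UMIs are given below. Cpr62Bb, Cpr67B and Cpr76Bd had UMIs in every library and were higher at day 2 as well (log2 fold changes 0.81, 0.71 and 1.34), beside a median of 0.16 over all genes. Each of these calls was lost when any 1 of 3 libraries was left out, which were both fed libraries and day 2 library 2 for Cpr62Bb and Cpr76Bd, and fed library 2 and both day 2 libraries for Cpr67B. At day 5, 4 were higher and 5 lower than in fed flies, where 13% of genes were higher and 47.5% lower. From day 2 to day 5, 4 were higher and 22 lower, where 10.4% of genes were higher and 54.1% lower. Of the 22, 10 passed through day 2 only, which favours a lower call, so this count is no support either. The 4 were Cpr62Ba, Cpr73D, TwdlT and Cpr67B, and the 10 lower ones with the lowest adjusted p were Lcp65Ag3, Lcp65Ag1, Cpr47Eg, Lcp65Ag2, TwdlN, TwdlM, Cpr49Ab, Lcp65Ac, Cpr65Au and Cpr78Cb. The median difference over the tested members was 0.00789, −0.00223 and −0.0127 in these comparisons, beside 0.00883, −0.0181 and −0.025 over all genes.

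Members that rose by day 5 over all nuclei were Cpr67B (18.1 and 17 CPM fed, 38.6 and 57.8 at day 5, log2 fold change 1.43, adjusted p = 6.1e-05) and Cpr73D. In day 5 library 2, 1 pylorus nucleus held 65 of the 447 UMIs of Cpr67B. Cpr73D had 25.5 and 26.1 in the fed libraries, 22 and 25.4 at day 2, and 41.2 and 41.1 at day 5 (log2 fold change 0.68, adjusted p = 0.0086, but 0.0535 without fed library 1). Cpr62Ba had 1.26 and 0.891, 1.56 and 1.64, and 5.02 and 4.01 (log2 fold change 2.07, adjusted p = 0.00013), but 1 epithelial nucleus held 16 of its 38 UMIs in day 5 library 1, which would be at 2.91 CPM without it. In these 3 genes, which were picked by their calls, no day 5 library overlapped with a fed one. The share of all genes without such overlap was not counted. TwdlT was also called higher (1.87 and 1.03 fed, 1.98 and 3.49 at day 5, adjusted p = 0.0072), but not on summed UMIs (adjusted p = 0.096) or without fed library 2 (adjusted p = 0.107).

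Members that fell by day 5 over all nuclei included Cpr49Ab, from 76.1 and 78.3 CPM in fed libraries to 38.2 and 38.4 (log2 fold change −1.01, adjusted p = 1.1e-10). Cpr67Fb had 0.915 and 0.798 in the fed libraries, 0.809 and 0.548 at day 2, and 0 in both day 5 libraries (adjusted p = 0.0027). Cpr60D had 0.523 and 0.657, 1.25 and 1.58, and 0 in both (adjusted p = 0.023, but up to 0.0955 without either fed library). Both had no UMI in the day 5 libraries, which are the shallowest. Cpr49Ae (adjusted p = 0.02, but up to 0.291 without fed library 2 or day 5 library 1) and Cpr65Au (adjusted p = 0.0027, but up to 0.134 without either fed library) were called on mean values only, and on summed UMIs Cpr65Au had a log2 fold change of −0.02.

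A set of the family was found almost only at day 2. The day 2 libraries held 35.3% of all UMIs, yet 21 members had at least 90% of their UMIs in them, and 14 of these had none in any fed or day 5 library. Being picked by their levels over conditions, these 21 are described without a test. Just outside that limit were Cpr50Cb (75.9%), Cpr72Ec (71.1%) and Cpr62Bc (68.2%).

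Lcp65Ag2, a larval cuticle protein gene, was the most abundant of them, with 17 and 23 UMIs in the fed libraries, 289 and 444 at day 2, and 6 and 5 at day 5, and its CPM at day 2 was 25 times that of fed flies. Lcp65Ag3, its neighbour, had 0 and 3 UMIs, 147 and 215, and 0 and 0. Lcp65Ag1 had 80 and 135 at day 2 and 0 elsewhere, which is at least 97.6-fold higher than the limit of 3 UMIs that a count of 0 in the fed libraries allows. Both day 2 libraries were high for all 3 copies, and library 2 was the higher.

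Cpr47Eg had 13 and 8 UMIs in the fed libraries, 150 and 267 at day 2, and 0 at day 5 (27 times the CPM of fed flies). TwdlN had 7 and 9, 105 and 229, and 0 (28.4 times). Cpr11A had 41 and 120 at day 2, 3 in day 5 library 1 and 0 elsewhere, which is at least 73.1-fold above fed on the same limit. Here too day 2 library 2 was higher, by more than its depth.

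The others were less abundant. Cpr78Cb had 29 and 74 UMIs at day 2 and 3 in fed library 2. Lcp65Ac (67 and 49), Cpr67Fa2 (21 and 44), Cpr67Fa1 (17 and 46), Cpr78Cc (24 and 36), TwdlM (20 and 32), TwdlP (19 and 29), Ccp84Ab (16 and 21), Cpr65Ax2 (19 and 16), Cpr49Ag (15 and 13), TwdlB (9 and 16), Lcp65Af (12 and 7), Cpr56F (8 and 6) and TwdlL (0 and 11) were at 0 in every other library. Cpr47Eb had 16 and 6 at day 2 and 2 in fed library 1. Of the 21, 19 lie within 10 kb of another gene of the family, as do 45 of all 61. They include the 5 Twdl genes of 3R:26619118-26632956 and 4 of the 5 genes named at the Lcp65A group. However, TwdlD, the next member along 3R (3R:26640025-26641054), had 6 and 5 UMIs in the fed libraries and 0 in all others, and Cpr65Au, which lies between Lcp65Ag3 and Lcp65Ag2, had its UMIs in every condition. Some totals came from single nuclei, as 46 of the 67 UMIs of Lcp65Ac in day 2 library 1 and 17 of the 21 of Ccp84Ab in day 2 library 2 were in 1 nucleus each.

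**Figure D4:**
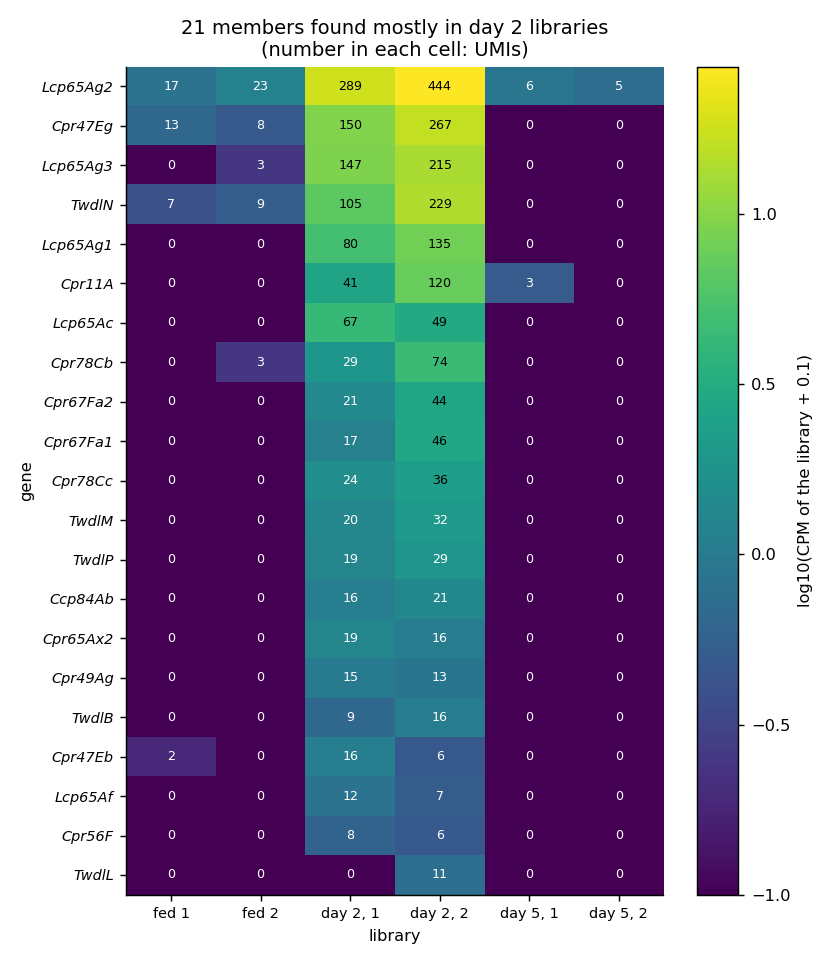
Heat map of the 21 members (rows) with at least 90% of their UMIs at day 2 over the 6 libraries (columns), with the UMI count written in each cell and colour giving the log10 of CPM plus 0.1. Both day 2 columns are filled except for TwdlL in library 1, up to 289 and 444 UMIs for Lcp65Ag2, and 14 rows are at 0 in all other columns.

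These transcripts sat together in few nuclei. Nuclei with UMIs of at least 5 different members numbered 0 and 2 in the fed libraries, 22 and 35 at day 2, and 1 and 2 at day 5. Of the 57 at day 2, 49 were epithelial (19 and 30), which is 2.8% of the 1749 epithelial nuclei of day 2. Near that limit there were 112, 33 and 12 day 2 nuclei at exactly 3, 4 and 5 members, and 136 and 24 fed and day 5 nuclei at exactly 3 and 4. None of the 62 nuclei shared its barcode with a nucleus of another library.

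The 57 nuclei of day 2 held 1814 of the 2920 UMIs of the 21 genes at day 2, or 62.1% (57.1% in library 1 and 65.2% in library 2). Among the 49 epithelial nuclei of these, the median nucleus had UMIs of 7 of the 21 genes, with a range of 0 to 11, and 33 UMIs of them. In the 49 epithelial nuclei, member UMIs made up 2.22% of all UMIs, as opposed to 0.151% in the other epithelial nuclei of day 2. The median total was 1292 UMIs (870 to 8081) and 654 genes, against 863 UMIs and 538.5 genes in the others, so the nuclei were deeper, and the count of members per nucleus depends on depth.

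Of the 49 nuclei, 46 held Lcp65Ag2, 42 Lcp65Ag3, 35 Lcp65Ag1, 34 Cpr78Cb, 33 TwdlN, 30 Cpr11A and 27 Cpr47Eg. The members that were abundant in the rest of the cluster were scarce in them, with the exception of Cpr67B. Cpr49Ab was found in 3 of the 49, at 48.4 CPM against 591 in the other epithelial nuclei of day 2, and Cpr65Au in 1, at 12.1 against 217. Cpr67B was found in 17, at 532 against 183. As the nuclei were picked by the members, these values are a description.

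**Figure D5:**
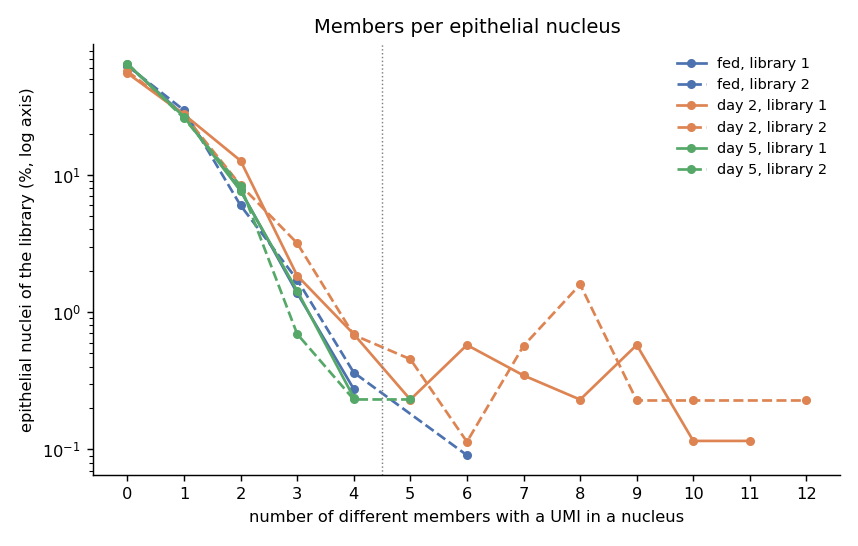
Percent of a library's epithelial nuclei (log axis) against the number of different cuticle protein genes with a UMI in the nucleus, from 0 to 12, with 1 line per library and counts of 0 not drawn. Beyond the dotted line between 4 and 5 members lie 19 and 30 epithelial nuclei of the day 2 libraries, 1 of fed library 2 and 1 of day 5 library 2.

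Without the nuclei of at least 5 members, the epithelial comparison of day 2 with fed gave 4 calls instead of 9, with 3 higher and 1 lower, where 0.923% of genes were higher and 2.41% lower. The 3 higher ones were Lcp65Ag1 (adjusted p = 0.021), Lcp65Ag2 (0.011) and Lcp65Ag3 (0.0099), which passed the filter through day 2 only and which also served to pick the nuclei left out, so that their calls are no support. On summed UMIs Lcp65Ag2 (adjusted p = 0.28) and Lcp65Ag3 (0.14) did not pass. Among the others, Cpr78Cb (0.92), Cpr11A (0.94), Cpr47Eg (0.099), TwdlN (0.067) and Cpr67B (0.08) were no longer called on mean values. The 49 epithelial nuclei of day 2 left out held 91, 143, 255 and 186 UMIs of the first 4 genes, and the other epithelial nuclei of day 2 held 1, 1, 14 and 11. The loss of these calls was thus largely set by the choice of nuclei. The fall of Cpr49Ab was still called (−0.205, adjusted p = 0.013). The 49 nuclei held 4 of its UMIs, against 1088 in the others, so leaving them out could hardly change that call. This setting was chosen after the data were seen.

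What remained outside these nuclei was spread over all clusters. In the 19 clusters with at least 100 such nuclei at day 2, the 21 genes together stood at 10.3 to 109 CPM, with a median of 27.9. The epithelial cluster was the highest at 109 (80.6 and 136 in the 2 libraries), and flight muscle had 56.9. In the fed libraries the same sums were 11.9 in the epithelial cluster and 0.552 in flight muscle. The share of nuclei with a UMI of the 21 genes was 7.29% in epithelial nuclei, at a median of 863 UMIs, and 5.42% in flight muscle, which should lack them, at a median of 1050 UMIs. Both the share and, in either library, the level (50.1 and 63.5 CPM in flight muscle) were thus higher in the remaining epithelial nuclei, at a lower depth. No test was made of this difference, and the part of free RNA in these values was not tested.

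Genes of the other cuticle pathways were counted from lists, to be read beside the shares of all tested genes in epithelial nuclei, which were 1.59% higher and 2.59% lower at day 2, 6.61% and 13% at day 5, and 2.9% and 8.5% from day 2 to day 5. In the epithelial cluster 27 of 41 genes of chitin synthesis, assembly and turnover were tested, of which 4 were higher and none lower at day 2, 1 was higher and 1 lower at day 5 than in fed flies, and 10 were lower at day 5 than at day 2. The median differences of the list were 0.061, −0.0127 and −0.0596, beside 0.00458, −0.0138 and −0.0181 over all genes. The 4 genes higher at day 2 were exp, a gene needed for chitin deposition (78.8 and 60.8 CPM fed, 156 and 221 at day 2, 67.6 and 45.5 at day 5, adjusted p = 0.0071), the chitin deacetylase gene Cda4 (19.3 and 15, 45.7 and 74.7, 4.22 and 0, adjusted p = 0.012), Gfat1, at the entry to amino sugar synthesis (412 and 359, 517 and 629, 410 and 349, adjusted p = 0.013), and the chitin deacetylase gene verm (109 and 97.8, 143 and 199, 65.4 and 60.7, adjusted p = 0.015). All 4, picked by their calls, were higher in both day 2 libraries than in any other, and the share of all genes with that order was not counted. On summed UMIs only exp passed (adjusted p = 0.021). Many of these UMIs lay in the 49 nuclei of at least 5 members, which held 216 UMIs of exp, 81 of Cda4, 119 of verm and 234 of Gfat1, as opposed to 149, 36, 212 and 873 in the other epithelial nuclei of day 2. The levels in these others were 81, 19.6, 115.2 and 474 CPM, respectively, and without nuclei of at least 5 members none of the 4 was called (adjusted p = 0.81, 0.97, 0.36 and 0.23). Of the 10 lower from day 2 to day 5, 2 were then still called. The 5 with the lowest adjusted p among those lower at day 5 than at day 2 were Cda4, verm, exp, Cht7 and obst-E (adjusted p = 8.6e-05 to 0.0028). Gasp, which encodes a chitin-binding protein, was at 109 and 137 in fed libraries and 393 and 191 at day 5 (adjusted p = 0.011).

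The tanning and pigment list had 13 of 18 genes tested in epithelial nuclei, with 1 higher at day 2, 1 higher and 3 lower at day 5, and 4 lower at day 5 than at day 2. The 3 that fell by day 5 included ple, which encodes tyrosine hydroxylase, the first step to the catecholamines that harden cuticle. It had 303 and 253 CPM in the fed libraries, 269 and 452 at day 2, and 169 and 99.7 at day 5 (−0.257 natural log units, adjusted p = 0.00023). Ddc, the next enzyme, had 377 and 412, 379 and 362, and 253 and 256 (adjusted p = 0.048), and yellow-e had 40.3 and 47.6, 54.4 and 52.8, and 12.7 and 10.8 (adjusted p = 0.0039). In all 3 genes, again picked by their calls, day 5 lay under both other conditions, and the share of all genes with that order was not counted. The laccase gene stw was higher at day 2 (adjusted p = 0.043) and yellow-h at day 5 (adjusted p = 0.049), neither of which passed on summed UMIs (adjusted p = 0.4 and 0.19).

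Of 11 genes for zona pellucida proteins of the apical matrix, 4 were tested, with 1 higher at day 2, 1 higher and 1 lower at day 5, and 2 lower at day 5 than at day 2. These were pio at day 2 (adjusted p = 0.0078), dpy (higher at day 5, adjusted p = 0.0017), neither of which passed on summed UMIs (adjusted p = 0.37 and 0.6), and qsm, which fell from 814 and 779 CPM in fed libraries to 629 and 639 at day 5 (adjusted p = 0.00095). Of 15 regulators of moulting and cuticle genes, 14 were tested, with 1 lower at day 2, 2 higher at day 5, and 3 higher at day 5 than at day 2. The nuclear receptor gene ftz-f1 was lower at day 2 (251 and 267 against 163 and 175, adjusted p = 0.044, but 0.058 on summed UMIs). The ecdysone-induced gene Eip74EF was at 617 and 753 in fed libraries and 804 and 858 at day 5 (adjusted p = 0.00023), and the repressor gene Blimp-1 at 576 and 596 and at 703 and 713 (adjusted p = 0.001), although neither passed on summed UMIs (adjusted p = 0.14 and 0.1). Of 13 cuticle protein genes with other symbols, only Pcp was tested, which was lower at day 5 than at day 2 (adjusted p = 0.02, but 0.21 on summed UMIs).

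In the trachea-named cluster, 8 of the 41 chitin genes were tested and none was called in any comparison by limma. The largest changes of the lists there were in stw, which fell from 601 and 569 CPM in fed libraries to 414 and 369 at day 2 and 232 and 295 at day 5 (−0.996 at day 5, adjusted p = 1e-05), and in EcR, the ecdysone receptor gene, with 1810 and 1839, 1290 and 1463, and 1140 and 1281 (−0.535 at day 5, adjusted p = 0.00061). Eip74EF rose there too (387 and 361 fed, 710 and 825 at day 5, adjusted p = 0.00095). In the pylorus, the only gene of these lists that was called was yellow-d, which fell at day 2 from 377 and 439 to 220 and 201 (adjusted p = 0.037, but 0.32 on summed UMIs).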

How the data were processed

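Single nuclei of 6 libraries were prepared by droplet 3′ sequencing, and per the labels reads were aligned to BDGP6 and counted with Cell Ranger 6.1.1, with Seurat also named. The study's methods state that libraries were aggregated with read depth equalised. The deposited matrix holds natural log values, made by the authors as ln of 1 plus 10000 times a scaled share; the step that added a multiplier per gene is not given in the sources used here. UMIs were worked back from these values, of which 99.97% came within 0.05 of a whole number. Doublet treatment is not given in the sources used here, and no caller was run. The 61 genes and all gene lists were chosen with earlier results of these data known. No columns of other samples were found.

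Mean values per library and cluster were tested with limma 3.58.1 (R 4.3.3, trended variance) over all 6 libraries without a replicate block, with Benjamini-Hochberg adjustment over the genes tested in a cluster and a threshold of 0.05. Genes needed a nonzero value in 10 nuclei of 2 libraries, and clusters 20 nuclei in every library, which 19 of 26 had. Log2 fold changes come from UMIs summed per library, with 0.5 added. Differences between clusters were tested on differences within libraries. The fits were tested on simulated data. Shares have exact 95% intervals by Clopper-Pearson, for counting error alone, and were thinned to 1000 UMIs with a fixed seed. The numbers 1 and 2 of the libraries did not pair them. Other tools were Python 3.11.15, numpy 2.4.6, scipy 1.17.1, pandas 2.3.3 and matplotlib 3.10.9, and positions are from Ensembl release 115.

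Genes were named by rule, namely the 10 members with most UMIs, the 5 highest in the epithelial, trachea-named and pylorus clusters, members past the threshold there or over all nuclei (up to 10 per comparison and direction, and up to 3 in each other cluster), and up to 5 genes per list and comparison. In all, 18 alternatives were planned, and 2 that leave out nuclei with 5 or more members were added after the data were seen. Protein and gene sequences were not used here.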

Additional observations from a re-analysis of the deposited data

Results flagged for a closer look

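The change of Cpr49Ab from fed to day 5 differed between epithelial and trachea-named nuclei, by −0.26 natural log units (adjusted p = 0.0075 by limma on the differences within libraries). The difference was lost without fed library 1 (adjusted p = 0.127) and did not pass on summed UMIs. Cpr73D was called in opposite directions in different clusters. From fed to day 5 it was higher by 0.526 in the fat body and changed by −0.0754 in follicle cell cluster 4. From day 2 to day 5 it was higher by 0.532 in the fat body and changed by −0.0769 in indirect flight muscle. The differences of Cpr73D between these clusters were not tested.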

How the results depend on the processing

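Of 80 results on named members, 34 kept their direction and their side of the threshold in every alternative and 4 reversed in at least 1. Without nuclei of 5 or more members, the 9 epithelial calls from fed to day 2 became 4, on mean values and on summed UMIs, and the 11 from day 2 to day 5 became 9 on mean values and 6 on summed UMIs. As these nuclei were picked by the members, their choice favours such losses. In the trachea-named cluster the 1 call at day 5 became 0 with no filter on low values, with summed UMIs, with median-ratio factors, without the gene multiplier, after thinning, with only the 4 libraries compared and with a replicate block. Thinning left 4 of 9 calls at day 5 over all nuclei. In the other clusters, the 9 calls at day 2 became 14 with no filter, 4 with summed UMIs, 4 with median-ratio factors and 3 after thinning. The 9 at day 5 became 14, 5 with summed UMIs and 5 after thinning, and the 10 from day 2 to day 5 became 33 with no filter, 6 with median-ratio factors and 6 after thinning. The 1 difference between clusters at day 5 became 2 with no filter and 0 with summed UMIs. Thinning moved the share of nuclei with a member UMI to 8.29% in the trachea-named cluster and 25.7% in the pylorus.

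Reversed values were a log2 change of 0.19 from day 2 to day 5 in the epithelial cluster for both Cpr78Cb and Cpr11A, on summed UMIs without nuclei of 5 or more members, which leaves those genes almost without UMIs. The others were 0.00754 for Cpr51A at day 5 in the trachea-named cluster after thinning, and 0.0994 for Cpr65Au at day 5 over all nuclei with median-ratio factors. For all others the cause was not tested.

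Leaving out each library gave, for the comparisons day 2 with fed, day 5 with fed and day 5 with day 2, counts of 2 to 9, 2 to 3 and 6 to 11 in the epithelial cluster, 12 to 18, 5 to 10 and 22 to 25 over all nuclei, and 3 to 10, 6 to 14 and 7 to 12 in the other clusters. The counts at day 5 were 0 to 1 in the trachea-named cluster and in the pylorus, and differences between clusters were 0 to 1 at day 2 and at day 5. The same number in 2 conditions marked no shared origin, with correlations of −0.066 to 0.071, and a replicate block gave 9, 3 and 10 calls in the epithelial cluster and 17, 9 and 26 over all nuclei. Most members are held at a few UMIs per library, the day 5 libraries are the shallowest, and 44 members could not be tested in the epithelial cluster.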

Other observations

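The 49 epithelial nuclei of day 2 with UMIs of at least 5 cuticle protein genes also differed in other genes, which were looked at after their values were seen and are described without a test. CG13731 was found in 46 of the 49 and CG10953 in 45. Over whole libraries CG13731 had 8 and 4 UMIs in the fed libraries, 234 and 356 at day 2, and 0 at day 5, and CG10953 had 216 and 322 at day 2 and 0 elsewhere. Of 36 genes of chitin synthesis, assembly and turnover, 22 were at a higher level in these nuclei and 13 at a lower one, and 9 had no UMI in them, of which obst-J had none in the others either. Among the higher ones were exp in 48 of them (2611 CPM against 81 in the other epithelial nuclei of day 2), the chitin synthase gene kkv in 28 (45.6 times the level of the others), Cda4 in 28 (50.1 times) and verm in 30 (12.5 times). Of 9 cuticle protein genes with other symbols, Vajk2 and Vajk3 were at 423 and 290 CPM, against 3.8 and 3.26 in the others. The remaining 7 had no UMI, among them Vajk1, Vajk4 and Pcp, which had 14, 1 and 47 UMIs in the others. For tanning and pigment, 5 genes were higher and 13 lower, and 7 of the lower ones had no UMI in these nuclei. For zona pellucida proteins, 3 were higher and 6 lower, and 6 genes had no UMI in them, of which 1 had none in the others either. The 49 nuclei held far fewer UMIs than the others, so a sparse gene can be at 0 in them without a lower level. For the regulators of moulting and cuticle genes, 5 were higher and 10 lower. The share of all genes at a higher level in these nuclei was not counted, so these counts show no lean of a list.

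Genes that mark developmental stage in Drosophila also stood apart there. The gene chinmo, known from juvenile stages, was found in 45 of the 49 nuclei, at 4376 CPM against 141 in the other epithelial nuclei of day 2, and lin-28 in 15, at 302 against 6.52. Neither gene was limited to day 2 or to these nuclei. Over whole libraries chinmo had 1486 and 1200 UMIs fed, 2351 and 2100 at day 2, and 490 and 555 at day 5. For lin-28 the counts were 68 and 85, 78 and 97, and 30 and 36. The 49 nuclei held 362 of the chinmo UMIs and 25 of the lin-28 UMIs. Eip93F, known for specifying adult development, was lower, with 19 UMIs in 6 nuclei and 230 CPM against 5561. The pupal factor gene br had 1 UMI, and rk, the receptor gene of the tanning hormone bursicon, had none, against 130 CPM in the others. Marker sums in these nuclei were 5404 CPM for epithelium (4289 in the others), 3312 for trachea (591) and 749 for pylorus and hindgut (376). The sums of all other marker lists were lower in them, among them muscle at 520 (1735) and hemocytes at 0 (47.8). The chitin-related genes Gasp, serp and verm gave 264 of the 274 UMIs of the trachea sum, whereas btl had none (73.9 CPM in the others) and trh was at 121 CPM against 173.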
